A study of Mus musculus with 20 samples.

Results

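The acute phase proteins are plasma proteins that the liver makes in changed amounts during inflammation. The 10 genes described here are the serum amyloid A genes Saa1 and Saa2, the orosomucoid genes Orm1 and Orm2, haptoglobin (Hp), lipocalin 2 (Lcn2), C-reactive protein (Crp) and the 3 fibrinogen chains Fga, Fgb and Fgg. They were chosen by symbol, as the rows of the raw count table whose Ensembl gene identifiers carry these symbols in GENCODE M21, and make up 10 of the 21780 genes in the table. All 10 passed the filter on low counts.

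The livers came from male C57Bl/6J mice that all ate a high-fat diet (HFD) with 42% of calories from fat for 12 weeks, and each of the 4 groups gave 5 livers, 1 polyA RNA library per mouse. The HFD control mice received the corn oil vehicle by oral gavage. HFD + Aroclor mice received a single gavage of 20 mg/kg Aroclor 1260, a commercial mixture of mostly non-dioxin-like polychlorinated biphenyls (PCBs), HFD + PCB 126 mice a single gavage of 20 µg/kg PCB 126, a dioxin-like congener that activates the aryl hydrocarbon receptor, and HFD + Aroclor + PCB 126 mice both. By the study's methods the diet began at 8 weeks of age and the gavage was given at 10 weeks of age. No group ate a control diet, so every comparison is between high-fat-fed mice, and whole liver was sequenced, so fewer cells of a type and less RNA per cell cannot be told apart. Mice are named by the replicate number in the sample titles. The library titled replicate 2 of HFD + PCB 126 carries the number 3 in its bracketed library name, as does the library titled replicate 3, and the group of both is the same.

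In the acute phase response, cytokines released by macrophages and other cells reach the hepatocyte. Interleukin 6 acts through its receptor, gp130 (Il6st) and JAK kinases to activate STAT3, interleukin 1 and tumor necrosis factor act through NF-kB, and C/EBP factors join them at many promoters. In mice serum amyloid A is the major inducible protein and rises from a low resting level by orders of magnitude, whereas C-reactive protein, the classical marker in humans, responds little. Negative acute phase proteins such as albumin and transthyretin fall during the response.

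Serum amyloid A travels on high-density lipoprotein, and Saa1 (ENSMUSG00000074115, chr7:46740497-46742980, minus strand) and Saa2 (ENSMUSG00000057465, chr7:46751790-46754313, plus strand) lie head to head on GRCm38. Orm1 (ENSMUSG00000039196, chr4:63344560-63348163) and Orm2 (ENSMUSG00000061540, chr4:63362449-63365878), which encode acid glycoproteins that bind drugs and lipids, are neighbours on the plus strand. Fgg (ENSMUSG00000033860, chr3:83007724-83015049, plus strand), Fga (ENSMUSG00000028001, chr3:83026076-83033627, plus strand) and Fgb (ENSMUSG00000033831, chr3:83040141-83049863, minus strand) form the fibrinogen cluster, whose products assemble into the clotting protein. Hp (ENSMUSG00000031722, chr8:109575128-109579172, minus strand) binds free haemoglobin, Lcn2 (ENSMUSG00000026822, chr2:32384633-32388252, minus strand) sequesters bacterial siderophores, and Crp (ENSMUSG00000037942, chr1:172698055-172833031, plus strand) is a pentraxin that binds phosphocholine. Of the 75-base windows of the annotated exons, 18.5% in Saa1 and 17.8% in Saa2 were identical between the pair, and 13.8% in Orm1 and 13.98% in Orm2 were shared among the orosomucoid genes, so reads from those stretches cannot be assigned to 1 gene. The other 6 members shared no window with another gene.

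The bases before the start sites of 6 members are shown because they cover the widely varying genes (Saa1, Saa2, Orm2 and Lcn2), a fibrinogen chain and Crp, the member with the narrowest range. RefSeq promoter sequences (GRCm38.p6) were matched by symbol for 8 of the 10 members; Orm1 and Hp had no entry. Each sequence below is the 250 bases upstream of the RefSeq start, read 5′ to 3′ on the gene's own strand. Capitals mark every match, on either strand, to the motif letters of C/EBP (TTNNGNAA), STAT (TTCNNNGAA), the interleukin 6 type 2 element (CTGGGA) or NF-kB. For NF-kB the letters were a 10-base pattern with several positions open to any base, so a match need not be a consensus site. Saa1 spans chr7:46742981-46743230, Saa2 chr7:46751583-46751832, Orm2 chr4:63362199-63362448, Lcn2 chr2:32387740-32387989, Fgb chr3:83049864-83050113 and Crp chr1:172697806-172698055.
Saa1: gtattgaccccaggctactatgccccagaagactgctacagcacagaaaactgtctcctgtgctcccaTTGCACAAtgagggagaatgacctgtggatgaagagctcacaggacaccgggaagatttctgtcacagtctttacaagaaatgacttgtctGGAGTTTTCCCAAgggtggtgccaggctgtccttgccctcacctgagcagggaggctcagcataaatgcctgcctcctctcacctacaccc
Saa2: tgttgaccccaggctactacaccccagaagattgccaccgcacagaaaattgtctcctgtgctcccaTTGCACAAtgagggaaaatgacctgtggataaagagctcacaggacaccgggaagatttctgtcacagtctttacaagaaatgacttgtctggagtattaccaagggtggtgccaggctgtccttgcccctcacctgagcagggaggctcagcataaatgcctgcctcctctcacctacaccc
Orm2: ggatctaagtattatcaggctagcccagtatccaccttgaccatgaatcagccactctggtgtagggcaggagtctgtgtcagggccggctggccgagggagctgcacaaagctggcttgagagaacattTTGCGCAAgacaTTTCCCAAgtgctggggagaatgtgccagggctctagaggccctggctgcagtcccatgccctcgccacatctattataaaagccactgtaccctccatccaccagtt
Lcn2: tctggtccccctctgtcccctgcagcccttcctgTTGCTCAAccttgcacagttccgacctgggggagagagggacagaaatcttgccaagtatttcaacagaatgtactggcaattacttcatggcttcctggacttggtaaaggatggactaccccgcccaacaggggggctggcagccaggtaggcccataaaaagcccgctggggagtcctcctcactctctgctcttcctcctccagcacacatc
Fgb: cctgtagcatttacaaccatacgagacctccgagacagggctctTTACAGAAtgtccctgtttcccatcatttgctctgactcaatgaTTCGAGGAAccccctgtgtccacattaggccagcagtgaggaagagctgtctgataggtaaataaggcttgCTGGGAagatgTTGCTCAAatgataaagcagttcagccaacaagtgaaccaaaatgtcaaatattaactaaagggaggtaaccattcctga
Crp: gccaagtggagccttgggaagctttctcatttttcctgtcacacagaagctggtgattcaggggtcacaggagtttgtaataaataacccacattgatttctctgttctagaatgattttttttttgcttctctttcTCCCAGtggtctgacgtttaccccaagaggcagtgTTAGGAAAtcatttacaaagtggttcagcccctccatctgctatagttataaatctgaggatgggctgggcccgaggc
The Saa1 and Saa2 windows were 94.8% identical in a global alignment, and both held a C/EBP match from 182 or 183 bases before the start. Saa1 also held a match to the NF-kB pattern from 91 bases before the start, which shares 5 bases with a second C/EBP match. The Saa2 window held no match to that pattern. Orm2 held 2 C/EBP matches, from 120 and 108 bases before the start, and Lcn2 held 1. Fgb held a STAT match from 162 bases, an interleukin 6 type 2 match from 91 bases and 2 C/EBP matches. Fga likewise held 1 match to each of those 3 motifs, Fgg a single type 2 match, and Crp a C/EBP and a type 2 match. Of 32817 distinct promoter windows of the same length, 36.8% held a C/EBP match, 7.01% a STAT match and 27.0% a type 2 match, and 4256 windows held an NF-kB match, against 7, 2, 4 and 1 of the 8 members. These letter matches describe the sequence and are not measured binding.

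Library sizes ran from 21836506 to 36854887 counts, and the 10 members took between 1.10% and 3.31% of a library. Levels are given as counts per 1000000 (CPM) on trimmed mean of M-values (TMM) library sizes. The smallest raw count behind any member value was 239, for Lcn2 in HFD control mouse 4, and that of Saa1 was 2712. Libraries also differed in how strongly expression depended on GC content. The slope of log2 CPM deviation per 10 percentage points of exon GC was 0.25 ± 0.14 (SD, n = 5) for the control livers, -0.0016 ± 0.078 after Aroclor, 0.11 ± 0.21 after PCB 126 and -0.37 ± 0.17 after both, and a GC-corrected value stands beside results it moves. Exon GC was lowest for Crp at 41.0% and highest for Hp at 55.6%.

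Resting levels between genes were compared per length, as CPM divided by the principal transcript's length in kilobases (FPKM), in the 5 HFD control livers. Hp had the highest control median at 2557 FPKM, followed by Fgg at 1835, Fga at 1228, Orm1 at 1063, Fgb at 885, Crp at 309, Saa1 at 267, Saa2 at 165, Orm2 at 46.7 and Lcn2 at 31.0 FPKM. The control ranges of neighbours in this order overlapped, with 2 exceptions. The lowest Fgb value lay above the highest Crp value, and the lowest Saa2 value above the highest Orm2 value. Overlapping ranges do not mean that the order changed within a mouse. At its highest in any of the 20 mice, Saa1 reached 7565 FPKM and Saa2 5008 FPKM, above the 4490 FPKM of the highest Hp liver.

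The members differed widely in their spread between mice. The highest liver exceeded the lowest by 69.7-fold for Saa2, 48.6-fold for Saa1, 43.4-fold for Lcn2 and 26.4-fold for Orm2. For Hp the range was 4.23-fold, for Orm1 3.44-fold, and for Fga, Fgg and Fgb 2.45-, 2.14- and 2.05-fold. Crp spanned only 1.79-fold. The groups overlapped throughout: for none of the 10 members did any of the 6 pairs of groups separate without overlap. How many of all genes separate in this way was not counted, so this overlap is not shown to be particular to the members.

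**Figure D1:**
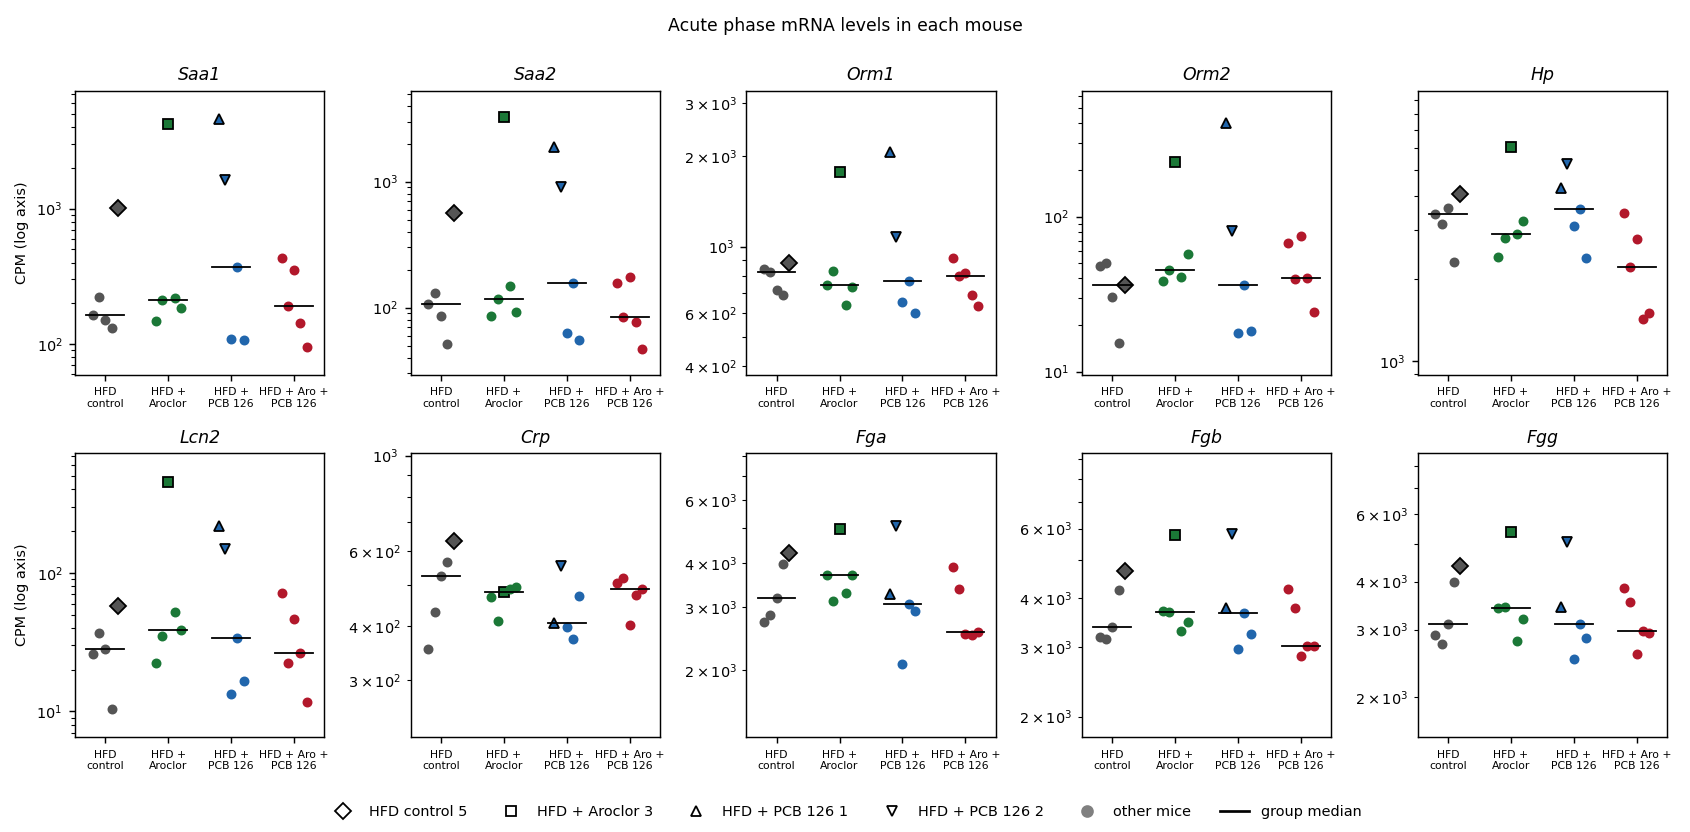
Level of each acute phase gene in each mouse, as CPM on a log axis, in the 4 exposure groups (5 mice each); each point is 1 mouse and the black line is the group median. Of the 4 mice with their own symbols, HFD + Aroclor mouse 3 and the HFD + PCB 126 mice 1 and 2 hold the 3 highest values of Saa1, Saa2, Orm1, Orm2, Hp and Lcn2, whereas Crp shows no such mice.

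Saa1 was measured at 163, 222, 151, 132 and 1011 CPM in HFD control mice 1 to 5. HFD + Aroclor mice had 147, 210, 4211, 220 and 184 CPM. In HFD + PCB 126 mice Saa1 stood at 4607, 1641, 110, 368 and 106 CPM, and in HFD + Aroclor + PCB 126 mice at 431, 192, 351, 144 and 94.8 CPM. The high livers, at 1011 CPM or more, were 1 control, 1 after Aroclor and 2 after PCB 126, and all others lay between 94.8 and 431 CPM. The highest, HFD + PCB 126 mouse 1, was 22.9-fold above the median of all 20 mice.

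Saa2, the neighbouring gene with a closely related product, followed the same 4 mice. Its values were 107, 131, 85.4, 51.0 and 565 CPM in HFD control, 85.1, 117, 3265, 147 and 92.2 CPM in HFD + Aroclor, 1899, 899, 63.0, 158 and 55.7 CPM in HFD + PCB 126, and 156, 83.7, 174, 76.3 and 46.9 CPM in HFD + Aroclor + PCB 126. The order of the top 2 mice changed between the genes: HFD + Aroclor mouse 3 led for Saa2 at 29.0-fold the overall median, and HFD + PCB 126 mouse 1 led for Saa1. The ratio of Saa1 to Saa2 CPM ranged from 1.29 in HFD + Aroclor mouse 3 to 2.77 in HFD + Aroclor + PCB 126 mouse 1, around a median of 1.86. Reads from the windows that both genes share cannot be placed. How the counting treated such reads was not given, so they may be missing from both counts.

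Lcn2, an iron-scavenging defence protein made by inflamed hepatocytes and by neutrophils, was low in most livers. It stood at 26.1, 36.9, 28.3, 10.5 and 57.9 CPM in HFD control, 22.5, 35.2, 455, 52.2 and 38.6 CPM in HFD + Aroclor, 219, 149, 13.3, 33.9 and 16.6 CPM in HFD + PCB 126, and 71.2, 22.5, 46.6, 26.5 and 11.7 CPM in HFD + Aroclor + PCB 126. Again HFD + Aroclor mouse 3 and HFD + PCB 126 mice 1 and 2 were highest, at 13.2-, 6.34- and 4.30-fold the overall median. The summed level of 10 neutrophil markers was low in every liver, between 2.25 and 11.4 CPM. The sum was highest in HFD + Aroclor mouse 3 at 11.4 CPM. HFD + PCB 126 mice 1 and 2 had only 4.56 and 4.74 CPM, inside the range of the other mice. In HFD + Aroclor mouse 3 Csf3r stood at 4.16, S100a9 at 3.76 and S100a8 at 2.11 CPM. Each other marker stood at 0.318 CPM or less there. Ly6g was 0 in that mouse, as in every liver but HFD control mouse 4. The neutrophil part in the Lcn2 counts was not tested.

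Orm1 and Orm2 encode closely related acid glycoproteins and differed in range. Orm1 read 843, 824, 719, 688 and 882 CPM in HFD control, 746, 829, 1771, 640 and 736 CPM in HFD + Aroclor, 2059, 1074, 653, 766 and 599 CPM in HFD + PCB 126, and 918, 796, 815, 688 and 634 CPM in HFD + Aroclor + PCB 126. Orm2 read 47.7, 49.9, 30.4, 15.3 and 36.2 CPM in HFD control, 38.3, 45.1, 226, 40.6 and 57.2 CPM in HFD + Aroclor, 402, 80.3, 17.7, 36.1 and 18.4 CPM in HFD + PCB 126, and 67.9, 39.6, 75.04, 40.0 and 24.4 CPM in HFD + Aroclor + PCB 126. The same 3 mice ranked highest for both genes, with HFD + PCB 126 mouse 1 at 2.64-fold the overall median for Orm1 and 9.99-fold for Orm2. HFD control mouse 5, which ranked 4 of 20 for Saa1 and Saa2, was near the middle for Orm2 and ranked 14 of 20. The Orm1 to Orm2 ratio ranged from 5.12 in HFD + PCB 126 mouse 1 to 45.1 in HFD control mouse 4.

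Hp, the haemoglobin scavenger, was abundant in all livers. Its levels were 3440, 3171, 3629, 2305 and 4086 CPM in HFD control, 2391, 2806, 6039, 2908 and 3256 CPM in HFD + Aroclor, 4274, 5248, 3102, 3607 and 2388 CPM in HFD + PCB 126, and 3486, 2203, 2785, 1428 and 1499 CPM in HFD + Aroclor + PCB 126. HFD + Aroclor mouse 3 was again highest, and the 2 lowest livers were mice 4 and 5 of the combined exposure.

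The 3 fibrinogen chains kept similar proportions in every liver. Fgb stood at 3189, 3149, 3370, 4188 and 4685 CPM in HFD control, 3717, 3679, 5765, 3299 and 3477 CPM in HFD + Aroclor, 3769, 5820, 2972, 3661 and 3239 CPM in HFD + PCB 126, and 4207, 3763, 2842, 3024 and 3019 CPM in HFD + Aroclor + PCB 126. Fga ranged from 2071 to 5080 CPM and Fgg from 2521 to 5394 CPM over the 20 mice. The ratio of Fgg to Fgb stayed between 0.846 and 0.983 in all mice and that of Fga to Fgb between 0.697 and 1.06. HFD + Aroclor mouse 3 and HFD + PCB 126 mouse 2 held the 2 highest values of each chain. HFD + PCB 126 mouse 1, the highest for Saa1, Orm1 and Orm2, ranked 10, 6 and 8 of 20 for Fga, Fgb and Fgg.

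Without GC correction Crp did not follow the Saa, Orm, Hp and Lcn2 genes. It was 354, 433, 524, 565 and 632 CPM in HFD control, 470, 412, 481, 490 and 493 CPM in HFD + Aroclor, 408, 553, 400, 373 and 471 CPM in HFD + PCB 126, and 504, 519, 403, 474 and 489 CPM in HFD + Aroclor + PCB 126. The 2 mice with the most Saa1 ranked 16 and 10 of 20 for Crp. Both the lowest and the highest Crp value belonged to the control group.

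To ask how the members vary together among mice of the same exposure, group means were removed from log2 CPM and each of the 45 pairs was correlated over the 20 mice, with a permutation test of mice within groups (100000 resamples, two-sided, Benjamini-Hochberg over 45 pairs). The correlation was positive for 43 pairs, and 34 had an adjusted permutation p under 0.05 by Pearson's r and 22 by Spearman's rho. Without the 2 mice farthest from the median of the first gene, 24 of the 45 pairs were under 0.05, 23 of them among the 34, and on GC-corrected values 35 were under it, the 34 included. All livers share the count table and its scaling, and pairs of near-identical genes share reads.

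Saa1 and Saa2 were most alike, with r = 0.99 and rho = 0.97 (permutation p = 1e-05 for both, the smallest these resamples can give; adjusted 9e-05), and r was 0.98 over the 18 mice left. Saa1 and Lcn2 had r = 0.96 and rho = 0.94 (permutation p = 1e-05 for both), with r = 0.91 over 18 mice. For Saa1 and Orm1 r was 0.93 (permutation p = 2e-05) and rho 0.89 (permutation p = 1e-05), and for Saa1 and Orm2 r was 0.89 (permutation p = 9e-05) and rho 0.88 (permutation p = 2e-05). Over 18 mice these became 0.85 and 0.77. Saa1 and Hp had r = 0.80 and rho = 0.84 (permutation p = 5e-05 for both), and 0.80 without the 2 mice.

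With the fibrinogen chains the relation of Saa1 was looser. For Fgb r was 0.71 (permutation p = 0.00658, adjusted 0.0133) and rho 0.58 (permutation p = 0.0193, adjusted 0.0395), with r = 0.76 over 18 mice. Among themselves Fgb and Fgg had r = 0.99 and rho = 0.98 (permutation p = 1e-05 for both), with r = 0.97 over 18 mice. Between Orm2 and Fgb r was only 0.41 (permutation p = 0.145, adjusted 0.172) and rho 0.36 (permutation p = 0.175, adjusted 0.212), and 0.38 over 18 mice. For Crp and Saa1 r was 0.20 (permutation p = 0.423, adjusted 0.476) and rho 0.011 (permutation p = 0.968, adjusted 0.982), with r = 0.37 over 18 mice, whereas Crp and Fga had r = 0.69 (permutation p = 0.00143, adjusted 0.00339) and rho = 0.69 (permutation p = 0.00324, adjusted 0.00767), with r = 0.68 over 18 mice. Hp and Fgb had r = 0.64 (permutation p = 0.00755, adjusted 0.0136) and rho = 0.48 (permutation p = 0.0490, adjusted 0.0788), and on these values the relation rested on 2 mice, HFD + Aroclor mouse 3 and HFD + Aroclor + PCB 126 mouse 1, without which r was 0.40 and its adjusted permutation p 0.248. On GC-corrected values of all 20 mice r was 0.83 (adjusted permutation p = 0.0005). Hp and Crp had r = 0.087 (adjusted permutation p = 0.709), and r = 0.49 on GC-corrected values (adjusted permutation p = 0.0565).

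**Figure D2:**
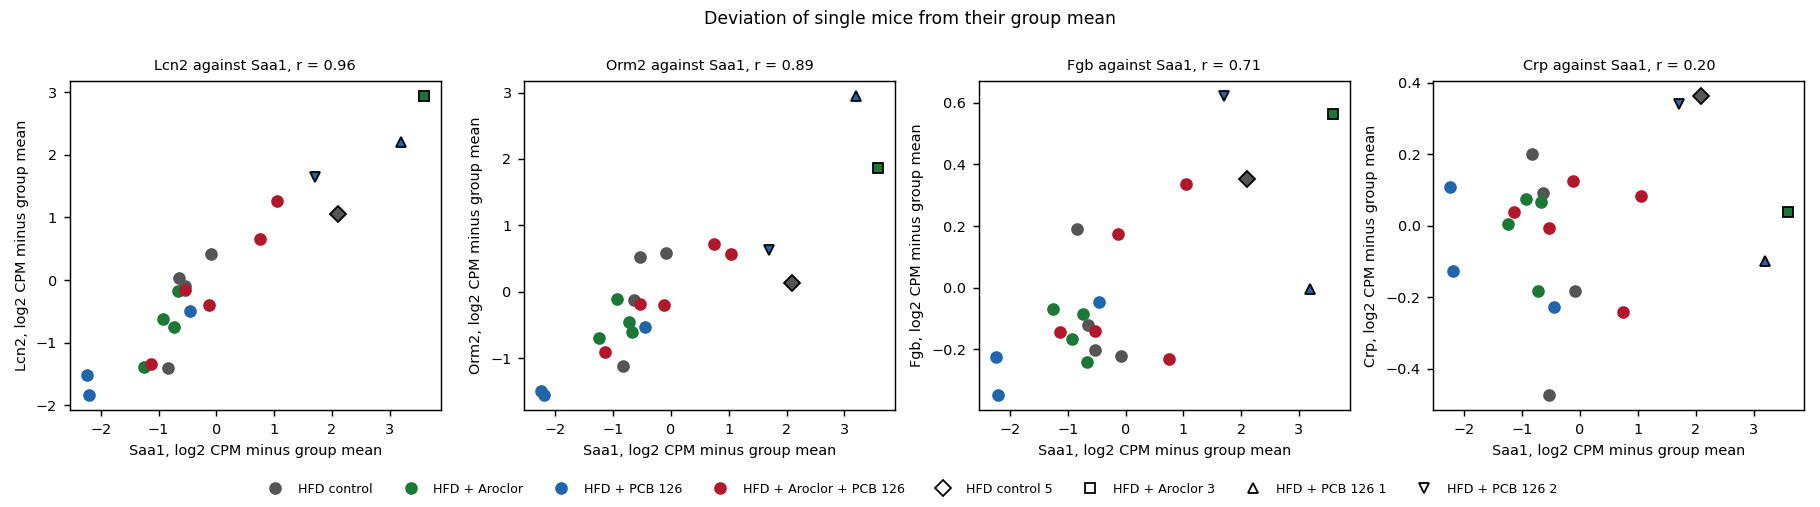
Deviation of each of the 20 mice from its group mean in log2 CPM, Saa1 on the horizontal axes and Lcn2, Orm2, Fgb and Crp on the vertical axes; colours are exposure groups and the 4 named mice have their own symbols. Lcn2 tracks Saa1 closely (r = 0.96), Orm2 and Fgb less so (0.89 and 0.71), HFD + PCB 126 mouse 1 lies far right at an average Fgb level, and Crp shows no trend (0.20).

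Apart from the members themselves, 11332 genes were compared by the same within-group r, and the 3 most like Saa1 were Hpx (r = 0.91), which encodes the heme-binding hemopexin, Itih4 (0.89), an inter-alpha-trypsin inhibitor heavy chain, and Prg4 (0.88), lubricin. Hpx (0.89), Lrg1 (0.87) and the complement gene C4b (0.86) were most like Hp. For Fgb they were the protease inhibitors Serpina3n (0.91) and Serpina10 (0.90) and the oligosaccharyltransferase subunit Ostc (0.88), and for Lcn2 Prg4 (0.87), Hpx (0.86) and Itih4 (0.85). Each r is over 20 libraries and is a description.

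The wider set of 24 other positive acute phase genes was uneven in these mice. HFD + Aroclor mouse 3 held the highest level of 11 of them. Apcs, the serum amyloid P pentraxin that is the major inducible pentraxin of mice, stood at 418 CPM in that mouse and between 49.7 and 126 CPM in the other 19. Fgl1, a fibrinogen-like hepatokine, was 5.50-fold above the overall median there, Lrg1 3.49-fold, Itih4 2.40-fold and Hpx 1.88-fold. HFD + PCB 126 mouse 1 had Itih4 at 2.05-fold but Lrg1 at 1.06-fold and Lbp, the lipopolysaccharide-binding protein, at 0.889-fold, and HFD + PCB 126 mouse 2 led for Serpina3n at 2.59-fold and Lbp at 1.81-fold. Saa3, the serum amyloid A gene of macrophages and fat, reached only 30.7 CPM and did so in another animal, HFD + PCB 126 mouse 4. HFD + Aroclor mouse 3 and HFD + PCB 126 mouse 1 came next for Saa3, at 24.6 and 17.9 CPM, and HFD + PCB 126 mouse 2 ranked 10. Serpina1e, one of several closely related antitrypsin genes, was highest in HFD control mice 4 and 5 at 3592 and 1908 CPM.

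**Figure D3:**
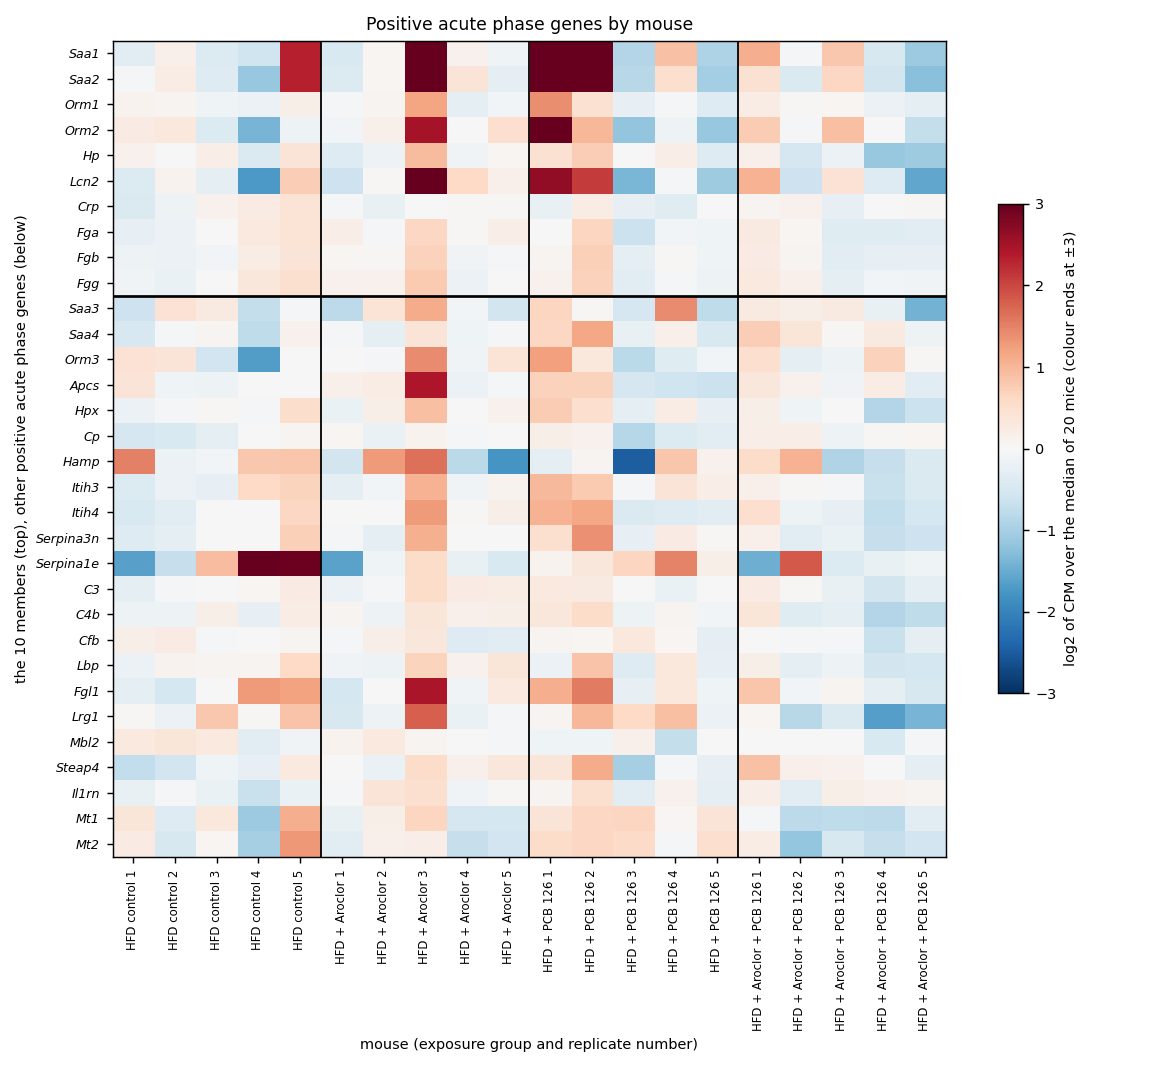
Log2 of each gene's CPM over its median of 20 mice, for the 10 members (above the line) and the other positive acute phase genes with a median of 10 CPM or more (below); columns are mice in the 4 exposure groups and the colour ends at ±3. Red columns in HFD + Aroclor mouse 3 and HFD + PCB 126 mice 1 and 2 run through most rows, strongest in Saa1, Saa2, Lcn2 and Orm2, and no exposure group is red throughout.

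The first question of the design is what each exposure did against HFD control. No member passed an adjusted p of 0.05 after Aroclor in edgeR's quasi-likelihood test over 15522 genes, where 0% of all genes passed. After PCB 126 again 0 of 10 passed, with 0.116% of all genes, and after the combined exposure 0 of 10, with 32.8% of all genes called. At an unadjusted p under 0.05 the counts were 1, 1 and 0 of 10 members, beside 17.2%, 14.7% and 42.4% of all genes, and DESeq2 also called 0 in each. The median member difference was 0.20 after Aroclor, 0.27 after PCB 126 and -0.13 after both on the log2 scale, against all-gene medians of -0.013, -0.018 and -0.00096.

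The estimates for Saa1, Saa2, Lcn2 and Orm2 were imprecise, and large after each single exposure. After Aroclor, Lcn2 had a log2 fold change of 1.92 (SE 0.84, 95% interval 0.16 to 3.67, adjusted p = 0.262), Saa2 of 1.98 (SE 1.07, -0.26 to 4.22, adjusted p = 0.334) and Saa1 of 1.57 (SE 1.04, -0.60 to 3.73, adjusted p = 0.425). These values turned on 1 liver. Without HFD + Aroclor mouse 3 they became 0.22, -0.77 and -0.82. The interval for Lcn2 excludes 0 only before adjustment for the number of genes.

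After PCB 126, Saa1 had a log2 fold change of 2.02 (SE 1.06, 95% interval -0.17 to 4.22, adjusted p = 0.377), Orm2 of 1.63 (SE 0.71, 0.14 to 3.12, adjusted p = 0.298), Saa2 of 1.71 (SE 1.07, adjusted p = 0.469) and Lcn2 of 1.44 (SE 0.83, adjusted p = 0.431). Without HFD + PCB 126 mouse 1 the Orm2 value was 0.085, Saa1 0.73, Saa2 0.64 and Lcn2 0.73. Leaving out HFD control mouse 5 instead raised the Saa1 value to 3.03, still without a call. Group medians, which 1 mouse moves little, were 163 CPM in control, 210 after Aroclor, 368 after PCB 126 and 192 after both for Saa1, and 36.2, 45.1, 36.1 and 40.0 CPM for Orm2.

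The fibrinogen chains, Crp and Hp were measured more tightly. For Fgb the log2 fold change was 0.10 (SE 0.19, 95% interval -0.29 to 0.49) after Aroclor, 0.067 (SE 0.19, -0.32 to 0.45) after PCB 126 and -0.14 (SE 0.19, -0.53 to 0.25) after both, so changes of 2-fold either way lay outside these intervals. Fga and Fgg had values between -0.20 and 0.14. For Crp the values were -0.096, -0.19 and -0.070, each with an SE of 0.13. Hp after the combined exposure had the lowest adjusted p of the 10 members over these 3 comparisons, with a log2 fold change of -0.54 (SE 0.27, 95% interval -1.11 to 0.019, adjusted p = 0.132), and without mouse 1 of the combined exposure it was called at -0.75 (adjusted p = 0.0437).

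GC correction lowered the combined-exposure values of Crp, Fgb and Fgg and raised that of Hp, the member with the highest exon GC. After it Crp fell by 0.58 on the log2 scale (SE 0.13, adjusted p = 0.0218), the single member called, where 2.82% of all genes passed. Under the same correction Fgb stood at -0.48 (adjusted p = 0.174), Fgg at -0.42 (adjusted p = 0.239) and Hp at -0.21 (adjusted p = 0.738), against -0.14, -0.11 and -0.54 without it. Saa1 and Saa2 moved little, to -0.32 and -0.64.

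**Figure D4:**
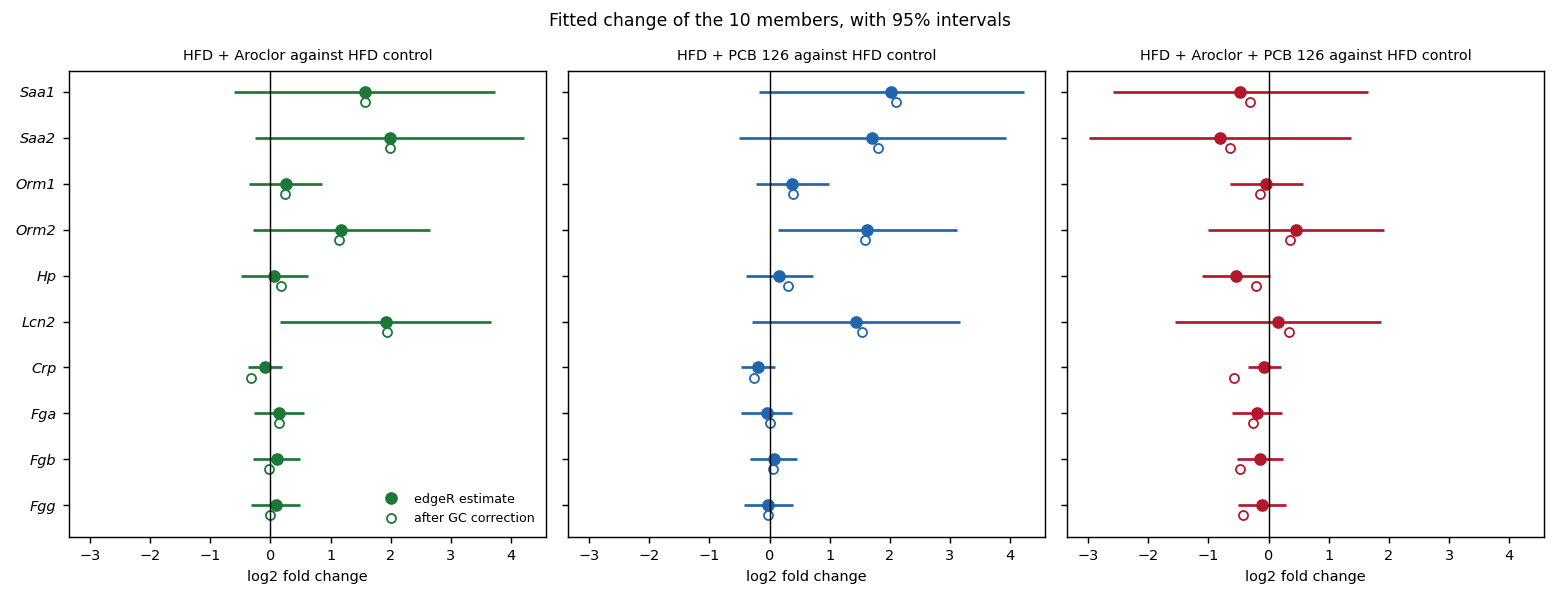
Log2 fold change of the 10 members against HFD control for the 3 exposures (edgeR); filled points are estimates, lines their 95% intervals and open points the estimates after GC correction. The intervals of Saa1, Saa2, Orm2 and Lcn2 are the widest, those of Crp and the fibrinogen chains the narrowest, and the open point of Crp lies at -0.58 after the combined exposure.

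The combined exposure was then set against each single one. Against HFD + Aroclor 0 of 10 members passed, with 0.412% of all genes called, and 3 of 10 had an unadjusted p under 0.05, beside 23.4% of all genes. Against HFD + PCB 126 again 0 passed, with 16.7% of all genes called, and 3 had an unadjusted p under 0.05, beside 35.6%. Hp came closest, with a log2 fold change of -0.71 against HFD + PCB 126 (SE 0.27, 95% interval -1.27 to -0.14, adjusted p = 0.0734), and DESeq2 called it there at -0.72 (adjusted p = 0.0315). It was -0.51 (adjusted p = 0.307) after GC correction. Hp was also called against HFD + PCB 126 without mouse 1 of the combined exposure, at -0.91 (adjusted p = 0.0319), and Hp and Saa2 were called without HFD + Aroclor mouse 3, which enters only through the shared spread, at -0.71 (adjusted p = 0.0458) and -2.52 (adjusted p = 0.0441). Saa1 differed by -2.04 from HFD + Aroclor (SE 1.06, adjusted p = 0.249) and by -2.49 from HFD + PCB 126 (SE 1.07, adjusted p = 0.105), and the combined group is shared by both. Without HFD + Aroclor mouse 3 the first value was 0.35, and without HFD + PCB 126 mouse 1 the second was -1.20.

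Whether both exposures together differed from the sum of the single ones was tested as an interaction on the log2 scale. No member passed, nor did any gene (0% called), and 4 of 10 members had an unadjusted p under 0.05, beside 11.9% of all genes. The 4 were Saa2 at -4.50 (SE 1.54, 95% interval -7.70 to -1.30, adjusted p = 0.301), Saa1 at -4.06 (SE 1.49, adjusted p = 0.321), Lcn2 at -3.19 (SE 1.18, adjusted p = 0.323) and Orm2 at -2.35 (SE 1.00, adjusted p = 0.372). Without HFD + Aroclor mouse 3 they became -1.75, -1.67, -1.49 and -1.50, and without HFD + PCB 126 mouse 1 Orm2 was -0.80. None of the 5 combined-exposure livers was among the 4 highest for Saa1 or Saa2.

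The pathway above the members was examined through lists of its genes. In the Aroclor and PCB 126 comparisons no gene of any list passed. After the combined exposure, where 15.8% of all genes were called higher and 17% lower, the inducing ligands held no call among 8 tested genes (Il22 was not tested). Il6, the main inducer, lay between 0 and 0.314 CPM, Tnf between 0.0381 and 0.549 CPM and Il1b between 1.07 and 5.56 CPM over the 20 livers. The raw counts behind them were 0 to 11 for Il6, 1 to 19 for Tnf and 28 to 195 for Il1b, so Il6 and Tnf rested on few reads, and HFD + PCB 126 mouse 1, the highest for Saa1, had Il6 at 0.0596 CPM and Il1b at 2.74 CPM.

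Of 11 receptors 4 rose and 1 fell after the combined exposure. Il6ra, the interleukin 6 receptor, rose by 0.90 on the log2 scale (SE 0.28, adjusted p = 0.0185), Tlr4, the endotoxin receptor, by 0.83, the glucocorticoid receptor Nr3c1 by 0.71 and Il1rap by 0.31, and the tumor necrosis factor receptor Tnfrsf1a fell by 0.50. Among 16 signal transducers and transcription factors Jak2 rose by 0.57, and 6 fell, among them the NF-kB subunit Rela by 0.90 (SE 0.13, adjusted p = 0.000505), Tyk2 by 0.61, Creb3l3 by 0.53, Myd88 by 0.49 and Cebpa by 0.32. Stat3 stood at -0.16 (adjusted p = 0.587). Of 8 inhibitors and feedback targets Junb fell by 1.58 and Bcl3 by 1.29, and Socs3, the STAT3 feedback inhibitor, stood at -1.18 (adjusted p = 0.0526). Without HFD control mouse 1 or 2 the receptor calls were 3. After GC correction no receptor and no feedback target was called, and of the transducers and factors Cebpb alone was, at 0.93 (adjusted p = 0.0299), against 0.038 (adjusted p = 0.904) without the correction. Its exon GC of 67.2% was the highest of the genes in these lists.

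Of the 24 other positive acute phase genes Lrg1 alone was called in that comparison, where it fell by 1.09 (SE 0.40, adjusted p = 0.0436), and the list's median was -0.29. Lrg1 was not called without HFD control mouse 5 or without mouse 4 or 5 of the combined exposure, and leaving out other mice gave up to 4 calls. Of 10 negative genes 4 fell and none rose, beside 17% of all genes called lower: Apoa1, the main protein of high-density lipoprotein, by 0.78, Ttr (transthyretin) by 0.70, F12 (coagulation factor XII) by 0.65 and Ahsg (fetuin A) by 0.47. Albumin stood at 0.17 (adjusted p = 0.313). GC correction left Ttr called, at -0.94 (adjusted p = 0.0332), and no other gene of these 2 lists.

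Cell type markers were checked in the same libraries. Hepatocyte markers summed to between 72989 and 107950 CPM, and HFD + Aroclor mouse 3 had the lowest sum. Albumin made up 53676 CPM of that sum and is also on the list of negative acute phase genes, so the sum does not measure hepatocyte content alone. Kupffer cell and macrophage markers summed to between 185 and 739 CPM, with 547 CPM in HFD + Aroclor mouse 3 and 502 and 411 CPM in HFD + PCB 126 mice 1 and 2, inside the range of the other livers. After the combined exposure 15.8% of all genes were called higher and 17% lower. Beside these shares, 1 of 6 hepatocyte, 1 of 10 Kupffer cell and macrophage and 3 of 6 stellate cell markers were called higher. Called lower were 2 hepatocyte, 1 of 6 endothelial, 1 stellate and 1 of 6 adipocyte markers. None of 9 neutrophil, 6 B and T cell or 6 cholangiocyte markers was called. No marker was called after GC correction. The part of cell makeup in the members' levels was not tested.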

How the data were processed

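PolyA RNA from 20 livers was sequenced from TruSeq Stranded mRNA libraries. The authors deposited raw counts per gene, made per the submitters' processing notes with FastQC 0.10.1, STAR 2.6 and HTSeq 0.10.0 on mm10/GRCm38.p6. The HTSeq annotation and strand setting were not given in the sources used here. Groups followed the sample labels. Genes with a total of 10 or more counts were tested with edgeR 4.0.16 (R 4.3.3): TMM scaling, quasi-likelihood fit of all 4 groups, Benjamini-Hochberg adjustment over all genes, threshold 0.05. Standard errors and 95% intervals came from the F statistic and the test's degrees of freedom. GC correction used a spline offset on exon GC content with 6 degrees of freedom. Correlations used log2 CPM (prior 0.5) in Python 3.11.15 (numpy 2.4.6, scipy 1.17.1), and figures matplotlib 3.10.9. Scripts were tested on simulated data. DESeq2 1.42.0, other scalings and filters, a replicate block and leaving out each mouse were alternatives. The rule for named genes took the 10 members, genes of the lists with an adjusted p under 0.05 in any exposure against HFD control, the most abundant tested genes of each list, and the 3 non-member genes (mean of at least 1 CPM) most correlated with Saa1, Hp, Fgb and Lcn2. Apcs, Fgl1, Lbp, Saa3, Serpina1e, Il6, Tnf, Il1b, Stat3, Socs3, Cebpb, S100a8, S100a9, Csf3r and Ly6g were named after their values were seen. The values of 1 listed gene are not reported here. The members and lists were chosen with earlier results of these data known. No 2 libraries of a group were alike within counting error (40 pairs, lowest chi-square per degree of freedom 18.7). P-values of the fits set group differences against the spread between mice. Permutation p-values concern the correlation of members over mice.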

Additional observations from a re-analysis of the deposited data

Results flagged for a closer look

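In 12 of the 40 combinations of member and group, 1 of the 5 mice lay so far from the others that its gap exceeded 0.71 of the group's range. For normally distributed values chance gives about 1 in 20. The rule was applied to CPM, which is skewed for several members, so that rate need not hold here. In HFD + Aroclor this was mouse 3 for 8 members, with 4211 CPM of Saa1 (other mice 147 to 220), 3265 CPM of Saa2 (85.1 to 147), 1771 CPM of Orm1 (640.0 to 829), 226 CPM of Orm2 (38.3 to 57.2), 6039 CPM of Hp (2391 to 3256), 455 CPM of Lcn2 (22.5 to 52.2), 5765 CPM of Fgb (3299 to 3717) and 5394 CPM of Fgg (2803 to 3440). In HFD + PCB 126 it was mouse 1 for Orm2, at 402 CPM (17.7 to 80.3), and mouse 2 for Fgb, at 5820 CPM (2972 to 3769). In HFD control it was mouse 5, with 1011 CPM of Saa1 (132 to 222) and 565 CPM of Saa2 (51.0 to 131). These genes share animals, so the 12 are not separate events.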

How the results depend on the processing

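In the Aroclor, PCB 126, combined against Aroclor and interaction comparisons no member was called under any alternative run or without any mouse. For the combined exposure against HFD control 1 was called with GC correction (Crp) and 1 with GC correction and the replicate block (Crp, -0.57, adjusted p = 0.0202), and 0 to 1 when mice were left out in turn. Against HFD + PCB 126 1 was called by DESeq2 and 1 with the replicate block (Hp, -0.76, adjusted p = 0.0415), and 0 to 2 when mice were left out. The replicate numbers were not taken to pair mice: of 30 same-numbered pairs 14 correlated above 0.1 (r from -0.13 to 0.75), and 7 of 20 libraries correlated best with their own number. Other values turned sign without a call. With the replicate block this was Lcn2, at -0.12 after both. With GC correction they were Fgb -0.020 and Fgg -0.014 after Aroclor, Fga 0.00195 after PCB 126, Crp -0.26 for both against Aroclor, Crp -0.33 for both against PCB 126 and Crp -0.014 for the interaction. With GC correction and the block they were Fgb -0.042 and Fgg -0.039 after Aroclor, Crp -0.26 for both against Aroclor, Crp -0.32 for both against PCB 126 and Crp -0.018 for the interaction. With the GC slope as covariate they were Fga -0.045, Fgb -0.012 and Fgg -0.069 after Aroclor, Fgb -0.00692 after PCB 126, Crp -0.28 for both against Aroclor, and Crp -0.28 for both against PCB 126. Leaving out mice turned the sign of 24 uncalled values over the 6 comparisons. After Aroclor they spanned Saa1 -0.82 to 2.57, Saa2 -0.77 to 2.98, Orm1 -0.10 to 0.35, Hp -0.23 to 0.17, Crp -0.20 to 0.0012, Fgb -0.069 to 0.20 and Fgg -0.095 to 0.19. After PCB 126 they spanned Orm1 -0.033 to 0.52, Fga -0.26 to 0.077, Fgb -0.12 to 0.16 and Fgg -0.21 to 0.088. After both they spanned Saa1 -0.78 to 0.54, Saa2 -1.08 to 0.19, Orm1 -0.11 to 0.024, Lcn2 -0.25 to 0.48 and Crp -0.17 to 0.027. For both against Aroclor they spanned Saa1 -2.35 to 0.35, Orm1 -0.44 to 0.063, Orm2 -0.94 to 0.13 and Crp -0.018 to 0.063. For both against PCB 126 they spanned Orm2 -1.44 to 0.37, Fga -0.27 to 0.067 and Fgg -0.18 to 0.10. For the interaction Fgg spanned -0.29 to 0.00703. The cause of these shifts was not tested. Depth limited the counts of Il6 and Tnf.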
